A study of Bos taurus with 14 samples.

Results

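MUC1, KRT19 and EPCAM are genes that epithelia use at their surface, in their cytoskeleton and at their cell contacts, and their RNA was followed here in bovine cells that are not labelled as epithelial. The probes that name these genes were taken from the annotation in the array files, which gave 3 of the 15208 non-control probes, 1 for each of these 3 genes among 6716 named genes. The MUC1 probe carries the gene's symbol. The KRT19 probe is described in the files as cytokeratin 19 and the EPCAM probe carries the older symbol TACSTD1, and both were matched to the symbol in use through the RefSeq gene table. A pair of probes with the gene name MUCIN, for a gall-bladder mucin, were not counted as MUC1.

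RNA came from endometrial stromal cells of cattle, abbreviated BES and labelled as in vitro cells, and from bovine granulocytes, labelled as in vivo/in vitro. For 2 h each cell type received PBS (phosphate-buffered saline) or IFNT (interferon tau), the latter at a labelled dose of 1 mg/mL, and no other agent or genotype is labelled in any group. There were 3 arrays of BES with PBS, 3 of BES with IFNT, 4 of granulocytes with PBS and 4 of granulocytes with IFNT. Whether replicates are separate animals or separate cultures is not labelled, and p-values therefore measure only the spread between these samples, which may be technical.

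MUC1 is a transmembrane mucin of the apical surface of epithelia, with a long ectodomain that carries many O-linked sugar chains and can be shed, and a short tail that binds signalling proteins. In the uterus it is known as part of the glycocalyx of the luminal epithelium that the conceptus meets. EPCAM is a membrane glycoprotein that joins epithelial cells to each other, and KRT19 is a type I keratin that forms filaments with the type II keratin KRT8. IFNT is a type I interferon made by the conceptus of ruminants around maternal recognition of pregnancy, and it acts through a cell-surface receptor and transcription factors that include interferon regulatory factors. Stromal cells are usually recognised by vimentin and collagens, and granulocytes by receptors and granule proteins of myeloid cells.

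All values below rest on 1 probe of 60 bases per gene, so the stretch of each probe around its polyadenylation signal letters is shown to make clear what was measured. Each line gives 30 bases, 5′ to 3′ as the array files write them, with the hexamer AATAAA or ATTAAA in capitals.
MUC1: tgaacatggctgAATAAAatgcagacctcc
KRT19: tctccccctgacctgccAATAAAactttat
EPCAM: tgtccatttgtcATTAAAtagctgctttcc
The MUC1 stretch is bases 23 to 52 of its probe, the KRT19 stretch bases 31 to 60 and the EPCAM stretch bases 20 to 49. Of all 15208 non-control probes, 11.3% held AATAAA on the printed strand, 3.97% held ATTAAA and 14.9% held at least 1 of them. A match is a description of the letters and not of a used site. The G and C content was 50% in the MUC1 probe, 55% in the KRT19 probe and 35% in the EPCAM probe. No other probe shared a run of 15 bases with the MUC1 or the EPCAM probe. A single probe shared such a run with the KRT19 probe, and its values are given with those of KRT19.

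The share of probes well above background, as the scanner software calls it, was 71.6% to 76.1% on BES arrays and 66.4% to 70.9% on granulocyte arrays. Levels are log2 signals relative to the 75th percentile of the array, so a level of 0 equals that percentile. The slide that held the BES arrays held no granulocyte array, so cell type and slide cannot be told apart. In granulocytes the PBS samples lay in array row 1 and the IFNT samples in array row 2, so array row and treatment cannot be told apart there. The interferon-stimulated genes ISG15, MX1, RSAD2, IFIT3 and USP18 rose in both cell types (5 of 5 in each), as a check of the treatment labels. All 13 measured stromal markers were well above background on every BES array, among them the collagens COL1A1 and COL3A1. With PBS 11 of these 13 were lower in granulocytes than in BES (adjusted p under 0.05 by limma), beside 48.6% of named genes. Vimentin (VIM) and THY1 were higher in granulocytes, beside 44.6% of named genes. Each of the 12 measured granulocyte markers was called on every granulocyte array. In bulk RNA, fewer cells of a type and less RNA per cell cannot be told apart.

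MUC1 RNA in granulocytes was higher with IFNT, where array row differed too, than with PBS, where it lay at or under the detection limit. With PBS the MUC1 level was -6.26, -6.56, -6.93 and -6.13 on the 4 granulocyte arrays, and only the last of these, PBS sample 4, was well above background. With IFNT it was -3.51, -3.68, -3.71 and -3.62, and all 4 arrays were well above background. The IFNT samples spanned a narrower range than the PBS samples. As processed signal, an intensity after the scanner software's background correction, the PBS samples measured 9.97 to 21.3 and the IFNT samples 90.2 to 105. Before that correction the mean spot signal was 83.0 to 95.3 with PBS and 160 to 186 with IFNT, so the fold depends on how much of the spot signal is counted as background.

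The fitted MUC1 change in granulocytes was a log2 rise of 2.84 ± 0.16 (SE, n = 4 against 4, 95% interval 2.47 to 3.20), or 7.14-fold, with an adjusted p of 1.7e-06 by limma. The rise was 2.21 ± 0.12 when dim signals were raised to the dimmest signal well above background on their array. It was 1.09 ± 0.10 with normexp background correction, which adds an offset to every signal and so shortens changes of dim probes (adjusted p = 1.3e-05 by limma). The call and the direction held in each of these settings, and the size did not. In this comparison 44.6% of the 10379 probes tested passed the threshold of 0.05 on the adjusted p, 17.2% by rising, so a call alone does not set MUC1 apart from other probes. The median absolute log2 change over the 4969 named genes tested was 0.19.

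In BES, MUC1 was measured on every array and its level moved little. With PBS the level was -3.68, -3.72 and -3.70, and with IFNT it was -3.33, -3.28 and -3.49. Among the IFNT samples, sample 3 was the nearest to the PBS samples. The change was a log2 rise of 0.33 ± 0.06 (SE, n = 3 against 3, 95% interval 0.18 to 0.49), or 1.26-fold, with an adjusted p of 0.0468 by limma. In BES 3.66% of the 11309 probes tested passed the threshold, 2.29% by rising and 1.37% by falling. The call did not hold when array row was added as a covariate (0.34 ± 0.10, adjusted p = 0.30 by limma), when all 14 arrays shared 1 fit (adjusted p = 0.28 by limma), or without any single sample other than IFNT sample 3 (0.29 to 0.34, adjusted p 0.069 to 0.15 by limma).

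**Figure D1:**
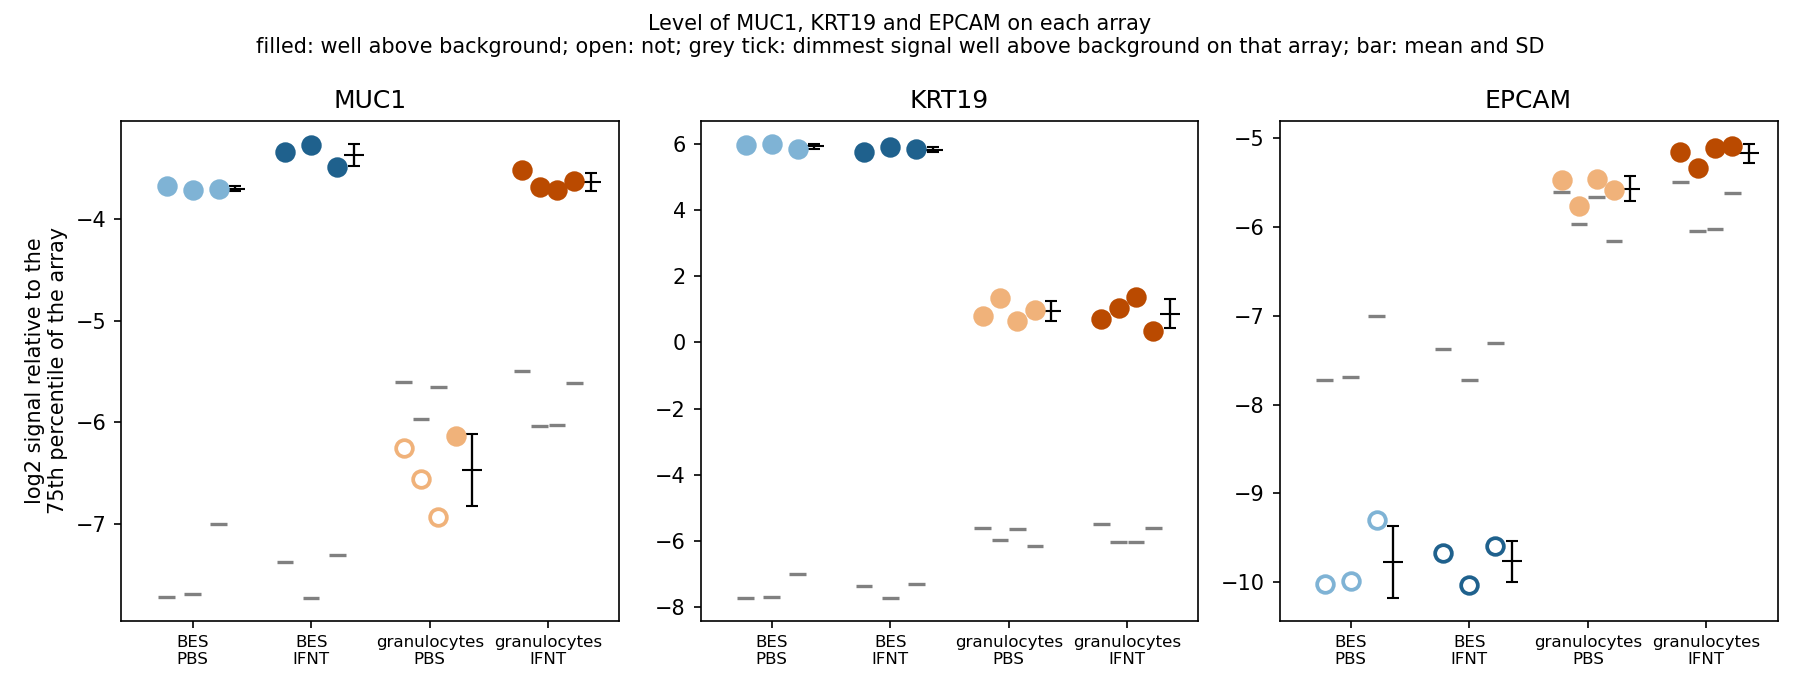
Level of MUC1, KRT19 and EPCAM on each of the 14 arrays, as log2 signal relative to the 75th percentile of the array (y axis), in the 4 groups (x axis). Filled points were well above background, open points were not, grey ticks mark the dimmest signal well above background on that array, and black bars give the mean and SD of the group. MUC1 in granulocytes goes from -6.47 ± 0.35 with PBS to -3.63 ± 0.09 with IFNT, and EPCAM is open on all 6 BES arrays.

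The MUC1 change was larger in granulocytes than in BES. The difference of the log2 changes was 2.50 ± 0.21 (SE, 14 arrays, 95% interval 2.05 to 2.96, adjusted p = 3.2e-06 by limma), 1.87 ± 0.16 with the floor for dim signals and 0.82 ± 0.13 with normexp (adjusted p = 2.7e-04 by limma). In this comparison 26.5% of the 12046 probes tested passed the threshold. By mean level the groups stood in the order granulocytes with PBS (-6.47 ± 0.35, SD), BES with PBS (-3.70 ± 0.02), granulocytes with IFNT (-3.63 ± 0.09) and BES with IFNT (-3.37 ± 0.11). The samples of BES with PBS and of granulocytes with IFNT overlapped on this scale, and this pair was not tested. They did not overlap with normexp. There the mean of granulocytes with IFNT (-2.93) lay above those of BES with PBS (-3.37) and BES with IFNT (-3.10). The normexp offset was the same on every array. The 75th percentile of processed signals was 1009 to 1491 on granulocyte arrays and 2564 to 3173 on BES arrays. The offset therefore lifts dim levels more in granulocytes, and no order of the cell types is read from normexp. With PBS, MUC1 was lower in granulocytes than in BES by a fitted log2 of -2.77 ± 0.15 (adjusted p = 7.7e-10 by limma), or -2.14 with the floor. With normexp it was -0.65, a value that also carries this offset. That comparison called 92.5% of the 11805 probes tested, and 45.4% as lower in granulocytes.

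EPCAM RNA was measured in granulocytes close to the detection limit and was not well above background on any of the 6 BES arrays. On the granulocyte arrays the level was -5.47, -5.76, -5.46 and -5.58 with PBS and -5.15, -5.33, -5.10 and -5.09 with IFNT. All 8 were called well above background, at processed intensities of 22.8 to 34.4. The change was a log2 rise of 0.40 ± 0.08 (SE, n = 4 against 4, 95% interval 0.21 to 0.59), or 1.32-fold, with an adjusted p of 4.6e-03 by limma. With normexp the rise was 0.11 ± 0.09 and the call was lost (adjusted p = 0.39 by limma). The mean spot signal before background correction was 87.0 to 106 with PBS and 102 to 105 with IFNT, and these ranges overlap.

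In BES the EPCAM signal was the scanner software's substitute for spots at background. Its processed intensity of 2.52 to 4.89 was shared exactly by 2014 to 2662 other probes on the same array. EPCAM was therefore not tested for IFNT in BES, and no size or direction is read from the fitted difference of its changes between the cell types. With PBS it was at least 3.75-fold higher in granulocytes than in BES. The bound is the granulocyte mean against the dimmest signal well above background on each BES array. The p-value of the fit is not given, since it rests on substitutes in BES. That bound is a log2 difference of 1.91, and the fitted difference with normexp was 1.76, below it. The normexp value carries the offset that lifts dim levels more in granulocytes. In that comparison 47.1% of probes were called higher in granulocytes.

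KRT19 RNA was measured on all 14 arrays, none of them saturated, and no change with IFNT was called in either cell type. In BES the level was 5.96, 6.01 and 5.86 with PBS and 5.75, 5.90 and 5.84 with IFNT, and the groups overlapped. The change was -0.11 ± 0.06 (SE, n = 3 against 3, 95% interval -0.26 to 0.04, adjusted p = 0.30 by limma), so the data do not separate a small fall from none. In granulocytes the level was 0.80, 1.35, 0.64 and 0.97 with PBS and 0.71, 1.05, 1.38 and 0.35 with IFNT. The spread between samples of 1 treatment was wide, and the highest and the lowest value both came from IFNT samples. The change was -0.07 ± 0.23 (SE, n = 4 against 4, 95% interval -0.59 to 0.46, adjusted p = 0.84 by limma), and its sign turned without PBS sample 2 or without IFNT sample 4. An interval of this width leaves room for a rise or a fall of the size seen for EPCAM.

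The difference of the KRT19 changes between the cell types was 0.05 ± 0.30 (SE, 14 arrays, 95% interval -0.61 to 0.70, adjusted p = 0.94 by limma). With PBS, KRT19 was lower in granulocytes than in BES by a log2 of -5.00 ± 0.21 (SE, n = 4 against 3, adjusted p = 6.3e-11 by limma), a 32.1-fold difference. The processed intensity was 154239 to 198145 in BES and 1490 to 3757 in granulocytes. By mean level the order was granulocytes with IFNT (0.87 ± 0.44, SD), granulocytes with PBS (0.94 ± 0.31), BES with IFNT (5.83 ± 0.08) and BES with PBS (5.95 ± 0.08), and within each cell type the neighbours overlapped.

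The probe that shares a run of 18 bases with the KRT19 probe is named in the files only as a cDNA clone. It was singled out after its sequence and values were seen. Its level was 1.62 to 1.76 in BES with PBS and -4.46 to -4.01 in granulocytes with PBS, and it was well above background on all 14 arrays. With PBS it was lower in granulocytes by a log2 of -5.90 ± 0.11 (adjusted p = 1.4e-14 by limma), in the same direction as KRT19. IFNT changes of -0.17 ± 0.05 in BES and -0.19 ± 0.12 in granulocytes were not called (adjusted p 0.13 and 0.24 by limma). Across the 8 granulocyte arrays it did not follow KRT19 (Pearson's r = -0.40, a description over samples that share treatment groups and a slide).

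The IFNT changes were recomputed under other ways of processing the signal. Scaling to the array median or by quantiles left MUC1 in granulocytes at 2.82 and 2.96 and EPCAM at 0.38 and 0.33, all called. KRT19 was not called under any of these settings in either cell type. MUC1 in BES stayed between 0.27 and 0.33 in these settings and lost its call with quantile scaling (0.28, adjusted p = 0.054 by limma).

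**Figure D2:**
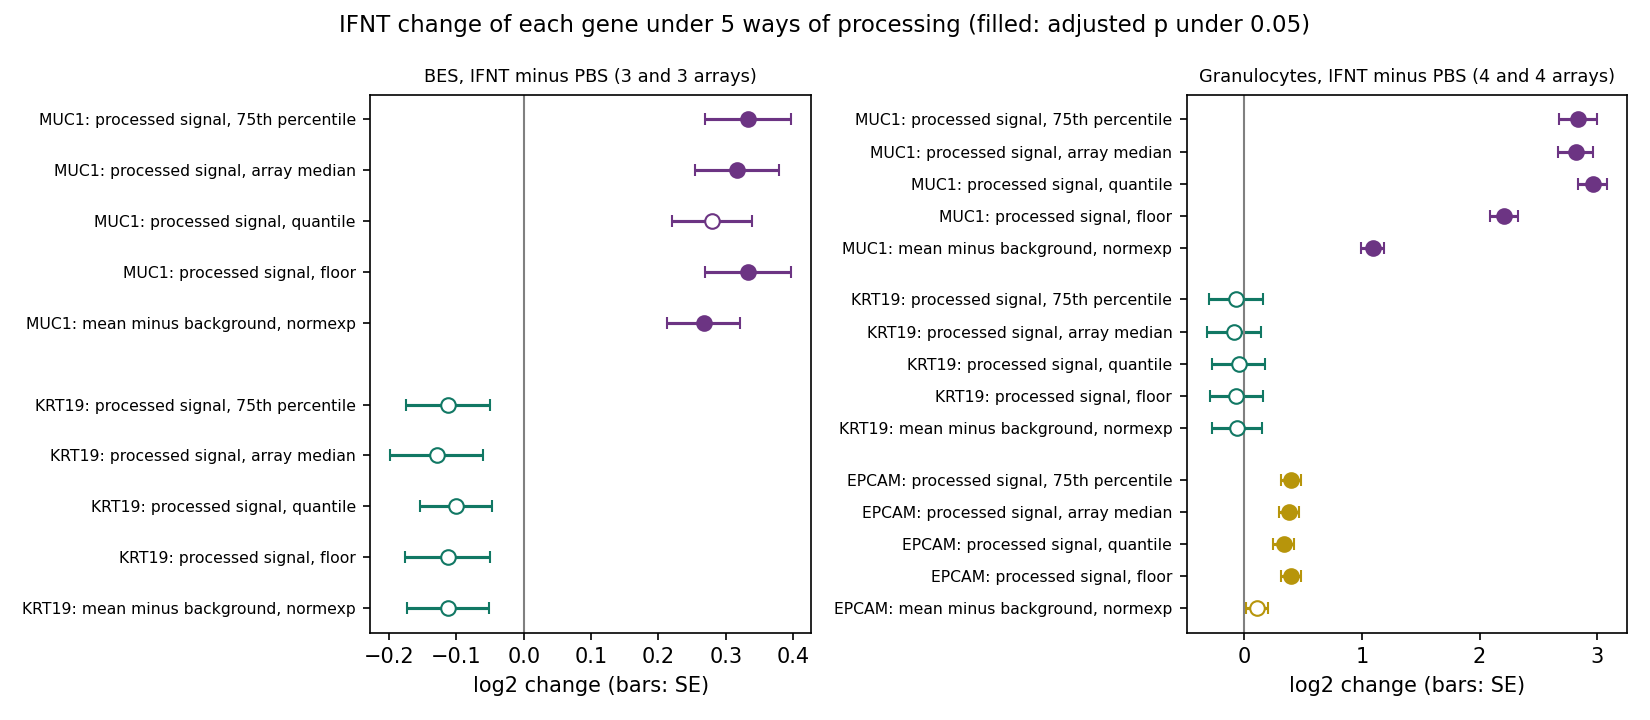
Log2 change with IFNT (x axis, bars are 1 SE) of each gene in BES (left) and granulocytes (right) under 5 ways of processing, with filled points where the adjusted p by limma was under 0.05. The panels have different x axes. MUC1 in granulocytes ranges from 1.09 with normexp to 2.96 with quantile scaling, and KRT19 is unfilled throughout.

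Of 40 genes listed as epithelial, 27 had a named probe, and they were described beside the 3 genes. In BES 18 of the 27 were well above background on every array, KRT19 and MUC1 among them, and 7 on none, EPCAM among them. In granulocytes 14 were well above background on all 8 arrays and 7 on none. The genes on no array of either cell type were CLDN10, TJP3, FOXA2 and OVOL1. The BES arrays thus carried signal for KRT8, the partner of KRT19, and for CDH1 and CLDN3 (E-cadherin and a tight junction claudin), but not for EPCAM, CD24 or RAB25.

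With PBS, 22 of the 27 were tested between the cell types, 9 passed as higher in granulocytes and 12 as lower, beside 44.6% and 48.6% of the 5561 named genes tested, or 93.2% in either direction. The median of the 22 log2 differences was -0.74, against -0.12 over all named genes tested. KRT7 and EHF, counted among the 12, and GRHL2, which was not called, were well above background on no granulocyte PBS array. In BES they were dimmer than the dimmest signal well above background on the granulocyte arrays, so no direction is read for them, and 10 lower genes remain. With these 3 left out and the 4 other genes at background in 1 cell type set at their bounds, the median was -0.43 over 19 genes. MUC1 and KRT19 belonged to the lower genes, with KRT8 (-12.35), CDH1 (-1.98), CDH3, CLDN3, OCLN, SPINT2, JUP and AP1M2. EPCAM belonged to the higher genes, with CD24, CLDN7 (5.14), CLDN4, RAB25, ST14, SPINT1, KRT5 and KRT14. Quantile and median scaling shifted the median of all probes in this comparison by -0.25 and -0.15 on the log2 scale, and normexp shifted it by 0.42.

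**Figure D3:**
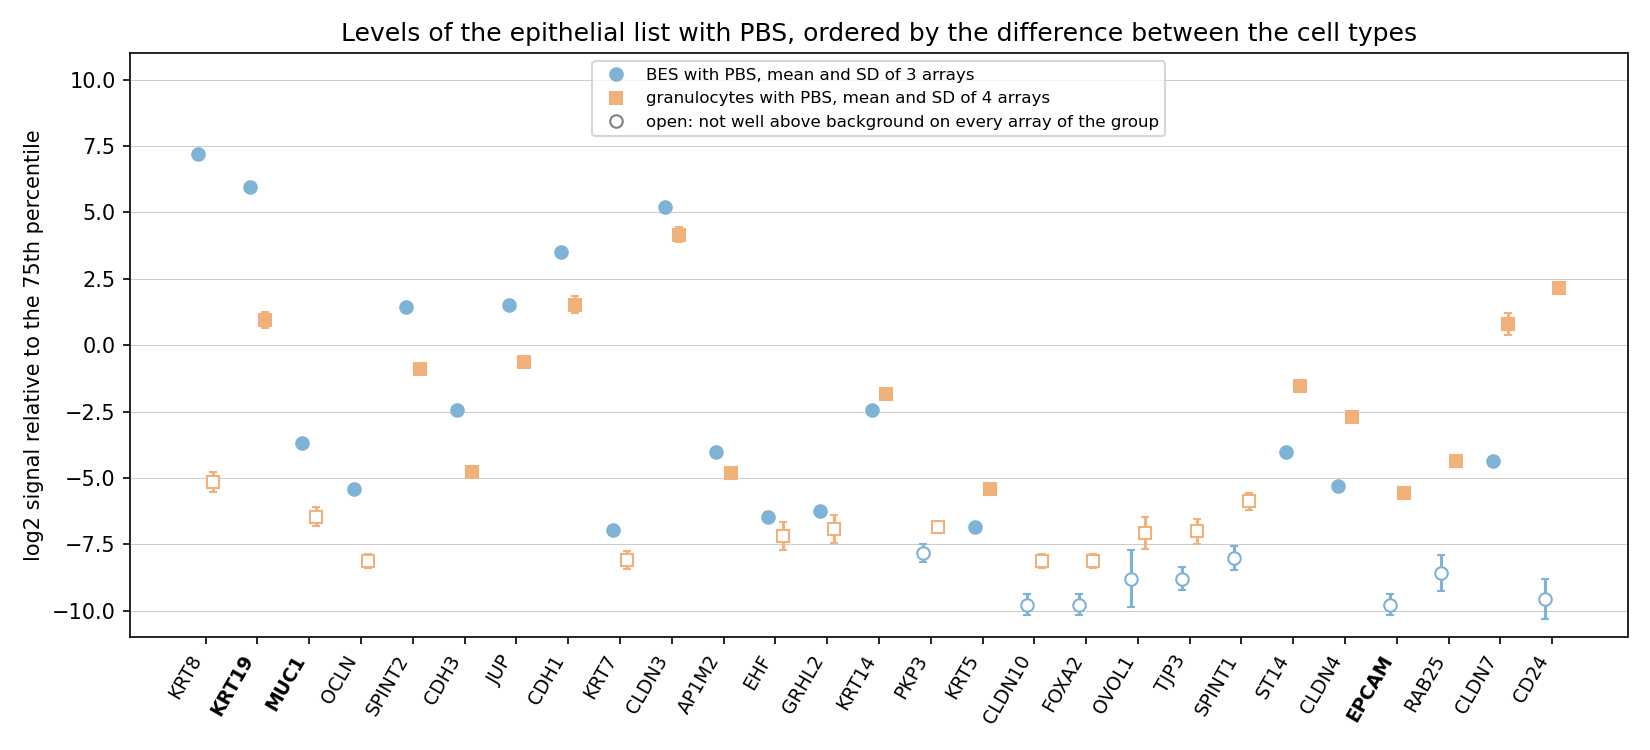
Mean level with PBS (y axis, log2 signal relative to the 75th percentile, bars are SD) of the 27 measured genes of the epithelial list in 3 BES arrays (circles) and 4 granulocyte arrays (squares), ordered by the difference between the cell types; levels are to be compared within a gene and not between genes. Open points were not well above background on every array of the group. KRT19 and MUC1 lie on the side that is higher in BES, and EPCAM lies on the side that is higher in granulocytes.

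In granulocytes 9 of the 18 epithelial genes tested were called with IFNT, 6 as rises and 3 as falls. The shares among the 4969 named genes tested were 18.2% and 26.5%. The rises were MUC1, EPCAM, RAB25, SPINT1, ST14 and KRT14, and the falls were CD24, CDH3 and JUP. Without MUC1 and EPCAM, which were chosen with earlier results known, 4 rises remain. MUC1 and SPINT1 passed the filter only with their IFNT arrays. The count of rises and the share are therefore not like for like. The median change of the 18 was 0.11, against -0.05 over all named genes. RAB25, a small GTPase of epithelial membrane recycling, rose by 1.35 ± 0.14, from -4.41 to -4.31 with PBS to -3.27 to -2.55 with IFNT. The membrane protease ST14, known as matriptase, rose by 0.59 ± 0.07 and its inhibitor SPINT1 by 0.66 ± 0.15, with SPINT1 well above background on 2 of 4 PBS arrays. CD24, a small glycoprotein that leukocytes also carry, fell by 1.05, from 2.08 to 2.17 with PBS to 0.98 to 1.14 with IFNT. The basal keratin KRT14 rose by 0.28 ± 0.06, P-cadherin (CDH3) fell by 0.28 with groups that overlapped, and plakoglobin (JUP) fell by 0.27, each with an adjusted p under the threshold by limma.

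In BES MUC1 was the 1 call among the 18 epithelial genes tested, beside 3.58% of the 5329 named genes tested (2.25% rose and 1.33% fell), and no gene of the list passed as a fall. At an unadjusted p under 0.05 by limma 6 of the 18 passed, beside 25.4% of all named genes. Apart from MUC1, the other 5 had a lower mean level with IFNT than with PBS, beside 17.0% lower of all named genes. These were KRT5 (-0.34, adjusted p = 0.063 by limma), EHF (-0.29), ST14 (-0.22), CLDN7 (-0.20) and JUP (-0.14). The median of the 18 changes was -0.09, against -0.03 over all named genes.

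**Figure D4:**
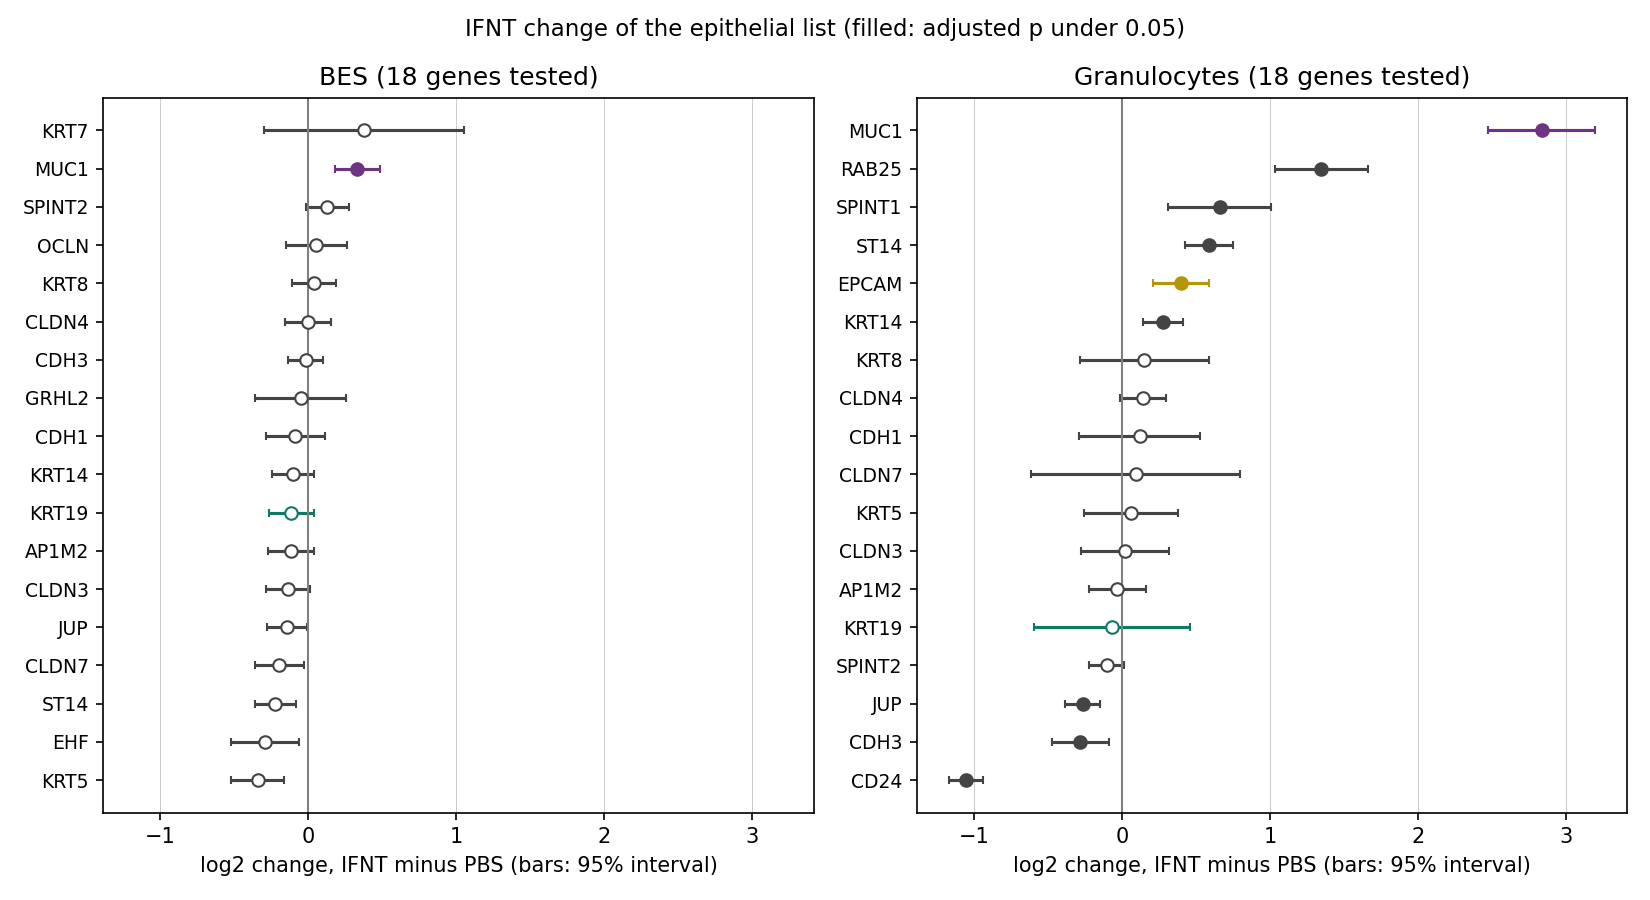
Log2 change with IFNT (x axis, bars are the 95% interval) of the 18 genes of the epithelial list tested in BES (left) and the 18 tested in granulocytes (right), with filled points where the adjusted p by limma was under 0.05. MUC1 is the single filled gene in BES (0.33) and lies farthest to the right in granulocytes (2.84), where CD24 lies farthest to the left.

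Markers of other cells were read beside the MUC1 and EPCAM rises in granulocytes, as the sum of their linear levels on each array. The sum of the 24 other epithelial genes was 25.0 to 35.0 with PBS and 25.5 to 30.1 with IFNT in granulocytes, and these ranges overlapped. A linear sum is carried by its brightest genes, here CLDN3 (level 3.87 to 4.53 with PBS). The overlap therefore cannot show whether dim genes of the list moved. In BES the same sum was 192 to 216 with PBS and 199 to 203 with IFNT. The stromal markers summed to 25.6 to 27.4 with PBS and 25.7 to 27.9 with IFNT in granulocytes. COL1A2, COL3A1, LUM, PDGFRA and NT5E were not well above background on any granulocyte array. VIM and THY1, both in this sum, were higher in granulocytes than in BES with PBS. In granulocytes 1 of 7 tested stromal markers rose (COL1A1, 1.42) and none fell, beside 18.2% rising and 26.5% falling of all named genes. At an unadjusted p under 0.05 by limma there were 2 of 7, beside 52.0% of all named genes. With PBS the COL1A1 level was -5.63 to -5.25 in granulocytes. The dimmest signals well above background on those arrays were -6.16 to -5.60, so the size of its rise is limited by the background.

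Sums of some blood cell markers moved with treatment in granulocytes. The calls named below stand beside 18.2% rising and 26.5% falling of all named genes. The 5 monocyte markers summed to 28.3 to 30.8 with PBS and 26.6 to 27.6 with IFNT, with CD14, C1QB, C1QC and MRC1 rising and CD68 falling. This sum is carried by CD68, the brightest of the 5 (level 4.59 to 4.73 with PBS). The pair of eosinophil markers summed to 13.7 to 14.5 and 10.6 to 12.1, and both (CCR3 and ALOX15) fell. The 3 B cell markers summed to 2.33 to 2.45 and 2.51 to 2.62, with JCHAIN rising. The 6 T and NK cell markers summed to 3.29 to 3.42 and 3.16 to 3.41, with NKG7 rising. NKG7 was well above background on 2 of 4 PBS arrays. The 4 endothelial markers summed to 0.0454 to 0.0707 and 0.0489 to 0.0732, with VWF and CDH5 not well above background on any granulocyte array, and the 3 platelet and erythroid markers to 2.41 to 2.64 and 2.38 to 2.49, with EPB42 falling and HBB not well above background. In BES the granulocyte markers summed to 1.40 to 1.67, against 875 to 1077 in granulocytes. The part of these cells in the MUC1 and EPCAM results was not tested.

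Other mucins and sialomucins were described for comparison with MUC1. Of 20 listed, 7 were on the array, and 5 were tested in each cell type. In granulocytes PODXL, a sialomucin of podocytes and endothelium, rose by 0.57 ± 0.12 beside MUC1 (adjusted p = 5.6e-03 by limma), and none of the 5 fell, beside 18.2% rising and 26.5% falling of all named genes. MUC15 (0.10), SELPLG (-0.13) and CD164 (0.01) were not called. In BES MUC1 was the 1 mucin called. MUC2 was not well above background on any array. Of the gall-bladder mucin probes, 1 was well above background on all 8 granulocyte arrays and on no BES array, and the other on 1 granulocyte PBS array.

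Enzymes that build O-linked sugars on mucins were measured for 20 of 30 listed genes. In granulocytes 17 were tested, and 3 rose and 7 fell, beside 18.2% and 26.5% of all named genes, with a median change of 0.03. ST6GALNAC4, a sialyltransferase, fell by 0.37, ST3GAL6 by 0.56 and GALNT1, an enzyme that starts O-glycan chains, by 0.37. GALNT4 fell by 0.39. The 3 rises, named after their values were seen, were ST3GAL1 (0.53 ± 0.12), C1GALT1C1, the chaperone of the core 1 synthase (0.40 ± 0.08), and ST3GAL4 (0.13). In BES 0 of 16 were called by limma, and 5 of 16 had an unadjusted p under 0.05, 4 of them with a lower level, beside 25.4% of all named genes.

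Binding partners and sheddases of MUC1 were measured for 12 of 23 listed genes. ICAM1, an adhesion receptor that binds MUC1, rose by 0.93 ± 0.10 in granulocytes (adjusted p = 1.3e-04 by limma). JUP fell by 0.27, and the other 6 of 8 tested were not called, among them PIK3R1 (0.10) and the kinase PRKCD (-0.46, adjusted p = 0.099 by limma). So 1 of 8 rose and 1 of 8 fell, beside 18.2% rising and 26.5% falling of all named genes. In BES 0 of 12 were called by limma. At an unadjusted p under 0.05 there were 8 of 12, 3 with a higher and 5 with a lower level, beside 8.37% higher and 17.0% lower of all named genes, and the median change was -0.14.

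Factors that have been linked to the MUC1 promoter were measured for 9 of 12 listed genes. In BES 3 of 8 tested rose and none fell, beside 2.25% and 1.33% of all named genes, and among the rises were IRF1 (1.38) and IRF9 (2.89). In granulocytes 4 of 7 tested rose, among them IRF1 (1.90 ± 0.12), IRF9 (1.03 ± 0.05) and STAT3 (0.27 ± 0.04), while NFKB1 fell by 0.54, beside 18.2% rising and 26.5% falling of all named genes. ESR1, the oestrogen receptor, was not well above background on any array, and PGR, the progesterone receptor, was well above background on every BES array and on no granulocyte array, with a change of 0.10 in BES that was not called.

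Keratins and other proteins of filaments and desmosomes were measured for 13 of 28 listed genes. In granulocytes 7 were tested, KRT14 rose and DSC2, a desmosomal cadherin, fell by 0.23, so 1 of 7 moved each way, beside the same 18.2% and 26.5%. KRT8 had a level of -5.16 in granulocytes with PBS and changed by 0.15 ± 0.19, which was not called. KRT3 changed by 0.20 ± 0.16 and was not called. In BES 0 of 12 were called by limma. An unadjusted p under 0.05 was found for 2 of 12, both with a lower level, beside 17.0% lower of all named genes. KRT8 changed by 0.04 in BES (adjusted p = 0.71 by limma).

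Partners of EPCAM and the proteases that cleave it were measured for 15 of 22 listed genes. In granulocytes 13 were tested, and MYC (0.31 ± 0.07), SPINT1 and ST14 rose. Of these 13, 4 fell, and among the falls were FHL2 by 0.89 and the gamma-secretase subunits PSEN2 by 0.26 and PSENEN by 0.29. The shares over all named genes were 18.2% rising and 26.5% falling. The claudin CLDN7, which binds EPCAM, changed by 0.09 ± 0.31 and was not called. In BES 0 of 13 were called by limma. An unadjusted p under 0.05 was found for 4 of 13, 2 in each direction, beside 8.37% higher and 17.0% lower of all named genes.

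The genes whose levels were most like those of each gene were found by Pearson's r among 5683 named genes, as a description over arrays that share slides and treatments. Over all 14 arrays the genes most like MUC1 were ADM (0.986), AZI2 (0.983), SLC22A5 (0.983), DELE1 (0.980) and PARD6A (0.975). ADM, the vasodilator peptide adrenomedullin, rose by 4.36 in granulocytes and changed by 0.25 in BES, where it was not called (adjusted p = 0.093 by limma). Over the 8 granulocyte arrays the closest were FUT1, AP1AR, SHFL, SESN2 and CHAF1A (all 0.997), and all rose there, as did MUC1. SHFL and SESN2 also rose in BES, by 1.65 and 0.65.

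Over all 14 arrays the genes most like EPCAM were KDM6A (0.999), HS3ST1, LOC407218, THRB and CATHL2 (all 0.998). Each of these held exactly the EPCAM signal, the substitute for spots at background, on 4 to 6 of the 6 BES arrays. Over the 8 granulocyte arrays the closest were MTCP1 (0.976), HOGA1 (0.967), USO1 (0.963), LGR4 (0.953) and ARMCX2 (0.950).

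Over all 14 arrays the genes most like KRT19 were RBP4, GAL3ST3 and LMAN1 (all 0.998), FZD3 and PAFAH1B3 (both 0.997), each lower in granulocytes. Over the 8 granulocyte arrays the closest were REPIN1 (0.994), BDA20 (0.988), PCK1 (0.962), ITGB3BP (0.956) and CDSN (0.946). BDA20 is a bovine dander allergen, CDSN (corneodesmosin) is a protein of cornified skin and PCK1 is an enzyme of gluconeogenesis. BDA20 was lowest in IFNT sample 4 (-1.30) and highest in IFNT sample 3 (0.25) and PBS sample 2 (0.14), as KRT19 was. None of these 5 was called for IFNT in granulocytes.

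In the epithelial list this likeness to KRT19 was not general. Over the same 8 arrays r was 0.81 for CLDN7, 0.40 for KRT8, 0.13 for KRT5, 0.09 for KRT14, 0.02 for CDH1, -0.10 for MUC1 and -0.36 for EPCAM. What the arrays with high or low KRT19 share was not tested.

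**Figure D5:**
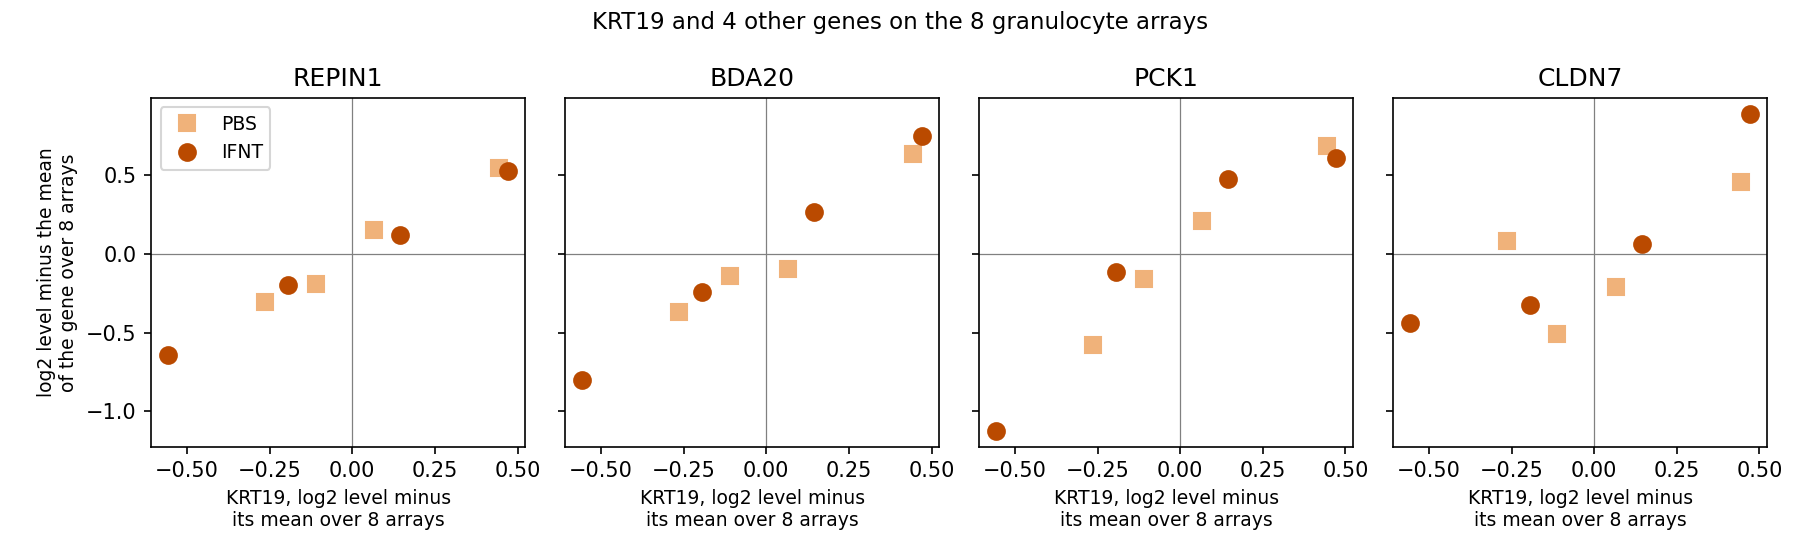
Level of KRT19 (x axis) against REPIN1, BDA20, PCK1 and CLDN7 (y axes) on the 8 granulocyte arrays, each as log2 level minus the gene's mean over these arrays; squares are PBS samples and circles are IFNT samples. Both treatments spread along the same diagonal, with r of 0.994 for REPIN1 and 0.81 for CLDN7.

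Neighbouring genes in the RefSeq gene table were looked up for MUC1 and KRT19, 3 on each side. For MUC1 only MTX1 was on the array, and it changed by 0.01 ± 0.05 in granulocytes and by -0.01 ± 0.04 in BES, neither called. For KRT19 the neighbours KRT15 and KRT14 were on the array. KRT15 was well above background on every BES array (-1.65 with PBS and with IFNT) and on no granulocyte array, and KRT14 has been described above.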

How the data were processed

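The deposited scanner files hold an intensity per spot, made with Agilent Feature Extraction 9.5 per the submitters' processing notes. The processed signal is background-corrected by that software, which puts a substitute where a spot does not exceed background. Log2 values in the authors' own table equal the log2 processed signal minus 1 constant per array (correlation 1), with no centring of probes between arrays. Here log2 processed signals of the 15208 non-control probes were set relative to the array's 75th percentile, and spots marked as outliers were left out. Array number limits the precision.

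Comparisons used limma 3.58.1 and R 4.3.3 (two-sided, Benjamini-Hochberg over all probes tested, threshold 0.05). Probes were tested when well above background on at least 3 of 6 BES arrays, 4 of 8 granulocyte arrays, either for the difference of changes, or 3 of 7 PBS arrays. The fits were tested on simulated data. Tables were made in Python 3.11.15.

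Of the probes, 7037 received a symbol (6716 distinct) from the files' names, accessions and gene numbers through RefSeq's ARS-UCD2.0 table, 941 of them from a description that calls the transcript similar to that gene (ST14, CD24, PODXL, NFKB1, PIK3R1, GALNT4, DSC2, MRC1, MUC2, FOXA2, AZI2, REPIN1, THRB, LGR4 and ARMCX2 below). Each gene is represented by its tested probe with the highest mean level. The rule named the 3 genes, every called member of the epithelial, mucin and promoter-factor lists, the 5 genes most like each gene, and its neighbours. It also named up to 4 members of each other list with the smallest unadjusted p by limma in the granulocyte contrast. For level checks it named up to 4 members of each marker list with the highest mean level. Members behind a count of 5 or fewer are also named, after their values were seen. The 3 genes and the 16 lists were chosen with earlier results of these data known.

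Same-numbered samples deviated together at r of -0.01 to 0.06 in BES and -0.12 to 0.20 in granulocytes, so the numbers were not used as pairs. Alternatives to the scaling, background, filter, variance prior, samples and array row were tried, with a floor for dim signals added after seeing the data. Promoter and protein sequences and genome positions were not used here. Some genes that the rule would name are not reported here.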

Additional observations from a re-analysis of the deposited data

Results flagged for a closer look

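The IFNT change was compared between the cell types by the test of the difference of the log2 changes (granulocytes minus BES, limma over all probes tested), for 69 tested genes that the text names from the lists. The difference passed in 22 of them, not counting genes at background throughout 1 cell type, beside 26.5% of all 12046 probes tested. Many of these genes were named for their granulocyte result, which is part of the difference. The count and the share over all probes are therefore not like for like. For MUC1 it was 2.504 (adjusted p = 3.2e-06), or 1.874 with dim signals raised to the floor and 0.824 with normexp, since 3 of the 4 granulocyte PBS signals were not well above background. Among epithelial genes ST14 differed by 0.811 and KRT14 by 0.379, both with a rise in granulocytes and a change in BES that was not called (-0.22 and -0.10), and SPINT2 by -0.234. Among the promoter factors IRF1 differed by 0.521, with a rise in both cell types, and IRF9 by -1.855, with the larger rise in BES. Among O-glycosylation genes ST3GAL6 differed by -0.848, GALNT1 by -0.322, ST6GALNAC4 by -0.289 and ST3GAL4 by 0.257. The MUC1 partners ICAM1 and PIK3R1 differed by 1.074 and 0.426, and the desmosomal DSC2 by -0.282. Among cell markers COL1A1 differed by 1.560, CD14 by 1.047, JCHAIN by 0.353, ALOX15 by -0.326 and EPB42 by -1.002. The treatment check genes ISG15 (-6.965), MX1 (-4.465), IFIT3 (-2.321) and RSAD2 (-1.397) rose more in BES.

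A sample far from the others was found in 6 of 118 groups of 4 granulocyte samples, where chance gives about 1 in 20 groups, and in no group of MUC1, KRT19 or EPCAM. With PBS the lowest CLDN4 level (-2.869) and the highest MUC15 level (-1.355) stood apart. With IFNT the highest MRC1 (-2.259) and PSEN2 (2.041) levels and the lowest ST3GAL6 (-1.272) and PIK3R1 (3.517) levels stood apart.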

How the results depend on the processing

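Of 348 values under the alternatives, 311 kept their direction and side of the threshold or, for counts of calls, stayed within 1.5 times; within that range, epithelial rises in granulocytes went from 6 to 4 with normexp and falls from 3 to 2 with normexp, without the filter, and with an intensity trend and robust prior. MUC1 in BES lost its call with quantile scaling (0.280), without the filter on dim probes (0.333), with all 14 arrays in 1 fit (0.333) and with a covariate for array row (0.335), and leaving out 1 sample gave 0.287 to 0.394; in each of these the count of epithelial rises in BES fell from 1 to 0, as it did without 5 of the 6 samples (0 to 1). EPCAM in granulocytes lost its call with normexp (0.108), and the fitted difference of its changes, from which nothing is read because its BES values are substitutes, was 0.334 with quantile scaling. KRT19 reversed without PBS sample 2 (0.070) or IFNT sample 4 (0.107) in granulocytes (range -0.236 to 0.107), and the difference of its changes ranged from -0.123 to 0.219, with -0.003 and -0.054 without granulocyte PBS samples 1 and 3 and -0.014 and -0.123 without IFNT samples 2 and 3. Probes called in BES, 414, became 189 without the filter, 1011 with an intensity trend and robust prior, 149 with array row, and 183 to 626 without 1 sample; in granulocytes they were 4034 to 4665. The cause was not tested. With the replicate number as a block, although the numbers do not pair the samples, MUC1 in BES (0.333, adjusted p = 0.081 by limma) and so the epithelial rises in BES (0) lost their call, and no other call of the 3 genes changed. EPCAM had no value in BES, and other probes of the same gene could not be tried since each gene had 1. MUC1 with PBS and EPCAM in granulocytes lie near the background, which limits the size of their changes.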
